A study of Mus musculus with 6 samples.

Results

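The Schwann cell and myelin genes described here were *Mbp*, *Pmp22*, *Mag*, *Cnp*, *Prx*, *Mog*, *Sox10* and *Egr2*. They were chosen by symbol, and their values were summed over every transcript listed under each symbol, which took 8 of 51802 gene symbols and 47 of 128603 transcripts. The samples were whole cochleae of mice at 2 months of age on a C57/BL6J background, 3 wildtype and 3 *Pou4f3(Δ/+)*. The *Pou4f3(Δ/+)* mice were heterozygous for a knock-in of a small deletion that shifts the reading frame of the transcription factor *Pou4f3*, made after a human DFNA15 mutation, and they kept 1 wildtype allele. The targeting vector also held a C-to-T change that adds a stop codon, and a loxP-Neo-loxP cassette. Both groups shared strain, age and tissue, and no agent is named for these samples. The authors describe this strain as homozygous for *Cdh23(ahl)*, a mutation that brings progressive hearing loss. The wildtype samples are numbered 3, 4 and 5 and the *Pou4f3(Δ/+)* samples 1, 2 and 3. Sex, the number of cochleae per sample and whether each sample came from a separate animal are not given in the sources used here, so the p-values measure only the spread between these samples.

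Myelin is the layered membrane that glia wrap around axons. Schwann cells make it in the peripheral nervous system and oligodendrocytes make it in the central nervous system. In the cochlea, Schwann cells wrap the peripheral fibres of the spiral ganglion, the neurons that carry signals from hair cells to the brain, and oligodendrocytes take over along the auditory nerve where it meets the central nervous system. In Schwann cells *Sox10* switches on *Egr2*, and both then act on the genes of myelin proteins. *Pou4f3* is a hair cell factor, so the comparison sets the glia of the auditory nerve side by side in mice with and without a mutation in a hair cell gene.

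None of the 8 genes passed the test between the genotypes. By edgeR's quasi-likelihood test on the summed counts, 0 of the 8 genes had an adjusted p under 0.05 and 0 of 8 had an unadjusted p under 0.05, against 0% and 7.64% of the 17136 genes tested. The estimated change was lower in *Pou4f3(Δ/+)* for 7 genes and higher for *Cnp* alone, with a median log2 fold change of -0.14, where the median over all genes tested was 0.00. All 8 genes passed the filter on low counts. The groups overlapped for each of the 8 genes, while 12.1% of all genes tested had groups that did not overlap (6.03% lower and 6.02% higher in *Pou4f3(Δ/+)*). DESeq2 also called 0 of the 8 genes, against 0.373% of all genes. These are whole-tissue values, in which fewer Schwann cells and less RNA per Schwann cell cannot be told apart.

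The libraries held 14295069 to 17696784 counts. Markers of hair cells were present in every sample, with a summed level of 38.8 to 47.2 FPKM over 6 genes, and neuron markers summed to 519 to 726 FPKM over 9 genes. *Pou4f3(Δ/+)* replicates 1 and 2 stood apart from the other 4 samples in B cell markers, such as *Cd79a* of the B cell receptor complex. The 9 B cell markers summed to 140, 152 and 122 FPKM in wildtype samples and to 279, 320 and 160 FPKM in *Pou4f3(Δ/+)*, and all 9 had an unadjusted p under 0.05, where 3.5% of all genes tested were higher at that level. The part of this difference in the values below was not tested, and the changes of genes and medians of lists that turned without these samples are also given without them. Shares and single transcripts were not refitted without the pair.

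**Figure D1:**
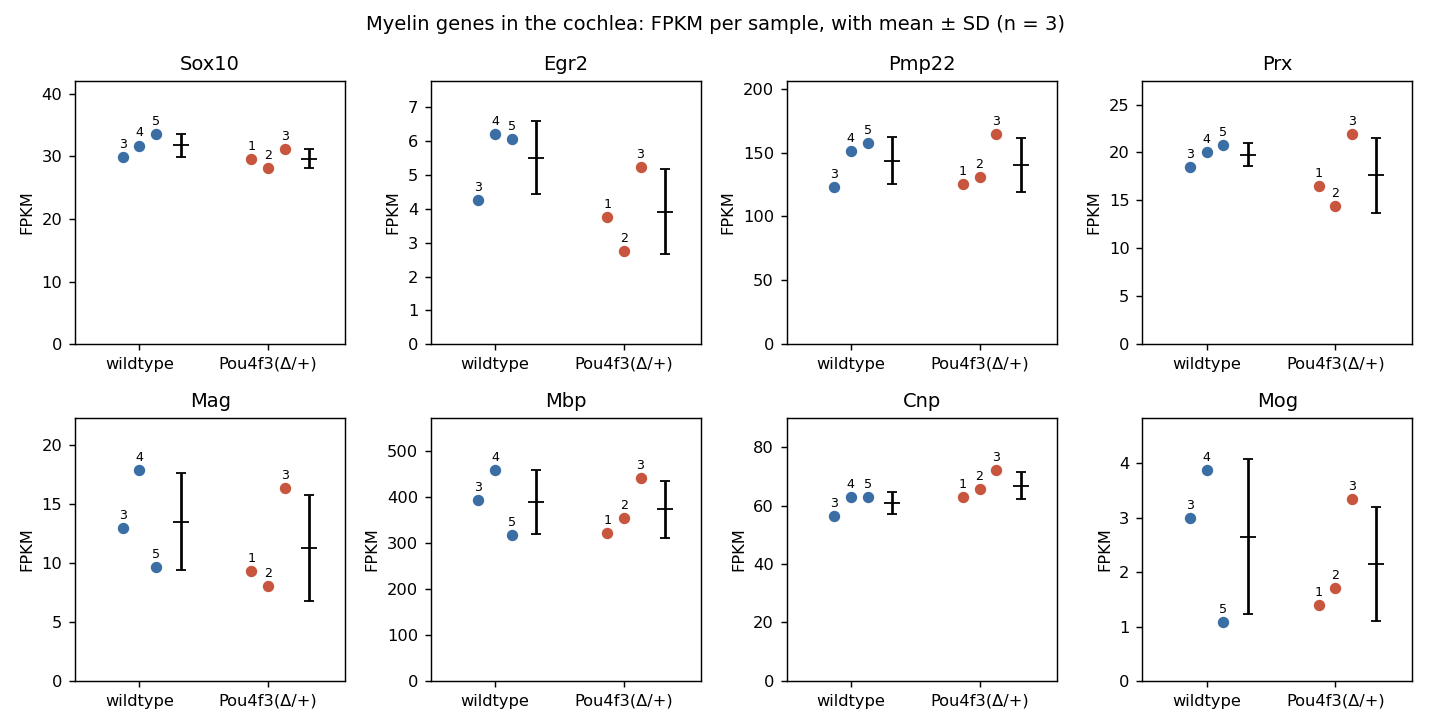
FPKM of the 8 genes (vertical axes, linear from 0) in the 3 wildtype (blue) and 3 *Pou4f3(Δ/+)* samples (red), with the replicate number above each point and the mean ± SD (n = 3) in black. The points of the groups overlap in every panel, and *Pou4f3(Δ/+)* replicates 1 and 2 lie below all wildtype points for *Sox10*, *Egr2*, *Prx* and *Mag*.

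*Sox10*, a transcription factor that glia of the neural crest need from their origin on, is encoded at chr15:79154913-79164490 (GRCm38) and had 1 listed transcript that encodes 466 residues. Its level was 29.92, 31.72 and 33.61 FPKM in the wildtype samples, and 29.60, 28.07 and 31.09 FPKM in the *Pou4f3(Δ/+)* samples, here and below in the order of their numbers. It varied least of the 8 genes, with a highest sample 1.20 times the lowest. The log2 fold change was -0.10 (SE, the standard error, 0.08; 95% interval -0.28 to 0.07; adjusted p = 0.739 by edgeR), so the fold lay between 0.83 and 1.05. *Sox10* is also used by the pigmented intermediate cells of the stria vascularis, and 5 of the 6 melanocyte markers tested had lower estimates, among them *Mitf*, the master regulator of melanocytes, with -0.26 (unadjusted p = 0.0145, adjusted p = 0.643), where 4.14% of all genes were lower at an unadjusted p under 0.05.

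*Egr2*, the zinc-finger factor that starts and keeps the myelinating state of Schwann cells (chr10:67535475-67542188), had the largest estimated change of the 8. Its level was 4.26, 6.22 and 6.05 FPKM in wildtype, resting on 217 to 308 counts, and 3.77, 2.74 and 5.24 FPKM in *Pou4f3(Δ/+)*, resting on 126 to 228 counts. *Pou4f3(Δ/+)* replicates 1 and 2 were below all 3 wildtype samples and replicate 3 was between them. Between genotypes the log2 fold change was -0.49 (SE 0.23, 95% interval -1.02 to 0.04, unadjusted p = 0.0652, adjusted p = 0.647). Over the 15 alternatives the estimate ran from -0.75, without *Pou4f3(Δ/+)* replicate 3, to -0.07, without *Pou4f3(Δ/+)* replicates 1 and 2 together. The adjusted p was never below 0.126.

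Of 8 other regulators of myelination, 6 had lower and 2 had higher estimates, with a median of -0.10 and 0 past an unadjusted p of 0.05. The most abundant was *Zeb2*, which lifts the block on myelination in differentiating Schwann cells, with a mean of 40.7 ± 2.61 FPKM (SD, n = 3) in wildtype and 39.1 ± 3.38 FPKM in *Pou4f3(Δ/+)*. *Pou3f1*, the POU factor that acts with *Sox10* to start *Egr2*, was at 1.55, 3.00 and 2.69 FPKM in wildtype samples and 1.47, 1.83 and 1.81 FPKM in *Pou4f3(Δ/+)*, for a log2 fold change of -0.50 (SE 0.25, adjusted p = 0.650). *Pou3f1* was named after its value was seen, as the lowest estimate in this list.

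*Pmp22*, a tetraspan protein of compact peripheral myelin (chr11:63128982-63159547), was abundant. Its level was 122.79, 151.16 and 157.32 FPKM in wildtype samples and 125.49, 131.26 and 164.82 FPKM in *Pou4f3(Δ/+)*. The groups spanned nearly the same range. This amounted to a log2 fold change of -0.03 (SE 0.12, 95% interval -0.32 to 0.25, adjusted p = 0.957). Its main transcript, which encodes 160 residues, held 89.0% of its FPKM. The transcript with the most upstream start held 10.4%, 10.8% and 8.41% in wildtype and 13.0%, 10.2% and 7.33% in *Pou4f3(Δ/+)*.

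*Prx* encodes periaxin, which ties the outer myelin membrane of Schwann cells to the dystroglycan complex and is not a part of central myelin (chr7:27499324-27520214). Its level was 18.45, 20.07 and 20.75 FPKM in wildtype samples and 16.48, 14.43 and 21.96 FPKM in *Pou4f3(Δ/+)*. The wildtype samples lay close together, replicates 1 and 2 of *Pou4f3(Δ/+)* were below them and replicate 3 was above them. The log2 fold change was -0.17 (SE 0.14, 95% interval -0.48 to 0.14, adjusted p = 0.764).

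Periaxin has a long form and a short form, and they part at an intron that is either spliced or kept. Prx-202 spliced this intron of 592 bases (chr7:27515448-27516039, forward strand) and encodes 1391 residues, whereas Prx-203 kept it and ends inside it after 148 residues. The runs below are coding sequence of the GENCODE M21 transcripts on GRCm38, 5′ to 3′. Lower case marks the shared bases before the intron, and capitals mark what follows, which is the next exon in Prx-202 (chr7:27515418-27516069 with the intron left out) and the kept intron up to its stop codon in Prx-203 (chr7:27515418-27515513).
Prx-202: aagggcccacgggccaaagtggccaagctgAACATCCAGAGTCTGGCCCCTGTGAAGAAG
Prx-203: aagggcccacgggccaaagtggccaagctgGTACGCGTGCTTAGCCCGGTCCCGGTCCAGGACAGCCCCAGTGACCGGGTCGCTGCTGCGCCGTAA

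The short form Prx-203 held 28.8%, 28.1% and 30.7% of *Prx* FPKM in wildtype samples and 33.1%, 33.2% and 28.4% in *Pou4f3(Δ/+)*. Replicates 1 and 2 were above all wildtype samples and replicate 3 was among them (exact two-sided permutation test, p = 0.3, where 3 against 3 samples allow no p below 0.1). Prx-203 itself was at 5.32, 5.64 and 6.38 FPKM in wildtype samples and 5.45, 4.79 and 6.23 FPKM in *Pou4f3(Δ/+)*, for a log2 fold change of -0.08 (SE 0.13, adjusted p = 0.999 over all transcripts tested). The long form was shared between Prx-202 and Prx-201, which encode the same length and whose reads could be divided between them, and Prx-202 spanned 4.88 to 14.53 FPKM over the 6 samples.

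*Mag*, the myelin-associated glycoprotein, is an adhesion protein of the innermost myelin membrane that faces the axon, in both nervous systems (chr7:30899176-30914873, reverse strand). Its level was 13.00, 17.88 and 9.68 FPKM in wildtype samples and 9.32, 8.10 and 16.42 FPKM in *Pou4f3(Δ/+)*. Each group had low and high samples, and *Pou4f3(Δ/+)* replicates 1 and 2 were the lowest of the 6. Between genotypes the log2 fold change was -0.30 (SE 0.25, 95% interval -0.87 to 0.27, adjusted p = 0.771), so a fold of 0.55 and a fold of 1.21 were both within the interval.

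*Mag* has a short and a long form that differ in the tail inside the cell. Mag-201 and Mag-203 keep an exon of 45 bases (chr7:30900352-30900396) that holds a stop codon, and encode 582 residues, whereas Mag-207 skips it and encodes 627 residues. In the runs below, 5′ to 3′ on the reverse strand of GRCm38, lower case marks the shared exon and capitals mark what follows, which is the kept exon up to its stop codon in Mag-201 (chr7:30900364-30900667 with the intron left out) and the next exon in Mag-207 (chr7:30899669-30900667, likewise).
Mag-201: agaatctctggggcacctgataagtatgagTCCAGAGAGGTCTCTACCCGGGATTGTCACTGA
Mag-207: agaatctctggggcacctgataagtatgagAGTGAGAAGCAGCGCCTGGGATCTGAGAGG

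Transcripts with the exon held 81.7%, 84.0% and 92.7% of the FPKM of Mag-201, Mag-203 and Mag-207 in wildtype samples and 72.4%, 79.9% and 75.2% in *Pou4f3(Δ/+)*. Every wildtype sample was above every *Pou4f3(Δ/+)* sample, a difference of -10.3 percentage points (exact two-sided permutation test, p = 0.1, the smallest p these groups allow, adjusted p = 0.233 over the 7 shares compared). This share was chosen after the transcript values were seen, and Mag-207 rested on only 15 to 67 counts per sample. In FPKM the forms with the exon were at 6.55, 7.94 and 5.61 in wildtype samples and 3.77, 4.17 and 6.93 in *Pou4f3(Δ/+)*, while Mag-207 was at 1.47, 1.51 and 0.44 in wildtype samples and 1.44, 1.05 and 2.28 in *Pou4f3(Δ/+)*, and both sets of values overlapped. The division between the 2 transcripts with the exon was unstable, since Mag-201 was listed at 0 in wildtype replicate 4, where Mag-203 was at 7.94 FPKM. A further coding transcript, Mag-205, held 38.4% of *Mag* FPKM on 26 to 71 counts and encodes 168 residues.

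*Mbp*, the basic protein that glues the inner faces of the myelin membrane together (chr18:82475146-82585637), was the most abundant of the 8 genes. Its level was 392.43, 457.25 and 317.11 FPKM in wildtype samples and 321.75, 354.75 and 441.05 FPKM in *Pou4f3(Δ/+)*. Both groups covered a similar span. This amounted to a log2 fold change of -0.05 (SE 0.15, 95% interval -0.38 to 0.29, adjusted p = 0.947), which is a fold between 0.77 and 1.22.

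The *Mbp* locus has a pair of promoters. The golli transcripts start 79.4 kb upstream of the classic ones and are known from neurons and immune cells as well as from glia. They summed to 13.0, 12.9 and 11.6 FPKM in wildtype samples and 14.4, 14.5 and 14.0 FPKM in *Pou4f3(Δ/+)*, so every *Pou4f3(Δ/+)* sample was above every wildtype sample (exact two-sided permutation test, p = 0.1, the smallest p possible). As a share of *Mbp* FPKM they were 3.32%, 2.81% and 3.65% in wildtype and 4.47%, 4.09% and 3.18% in *Pou4f3(Δ/+)*, and these overlapped (p = 0.3 in the same exact test). The share was the planned measure, whereas the sum was not planned and its p was not adjusted. Most of the golli signal was Mbp-205, with 11.25, 11.30 and 10.50 FPKM in wildtype samples and 12.41, 11.81 and 12.44 FPKM in *Pou4f3(Δ/+)*, for a log2 fold change of 0.14 (SE 0.07, adjusted p = 0.999). B cell markers were also higher in all of their tested genes in *Pou4f3(Δ/+)*, and their part in the golli values was not tested.

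The classic *Mbp* transcripts, which carry the myelin forms, summed to 379, 444 and 306 FPKM in wildtype samples and 307, 340 and 427 FPKM in *Pou4f3(Δ/+)*. Mbp-211, which encodes 128 residues, held 65.9% of *Mbp* FPKM and was at 256.07, 303.06 and 193.51 FPKM in wildtype samples and 209.61, 247.69 and 294.69 FPKM in *Pou4f3(Δ/+)*. Mbp-212, which keeps an exon of 123 bases that Mbp-211 lacks and encodes 169 residues, held 14.0%. Classic transcripts with that exon held 26.1%, 26.1% and 30.8% of classic FPKM in wildtype samples and 24.9%, 22.5% and 25.8% in *Pou4f3(Δ/+)*, without overlap of the groups (difference -3.26 percentage points, exact permutation test, p = 0.1, adjusted p = 0.233 over the 7 shares). This share, too, was chosen after the values were seen.

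Another classic transcript, Mbp-215, includes an exon of 78 bases (chr18:82561778-82561855) that is known from early myelinating glia, and encodes 154 residues. It was at 23.07, 23.88 and 16.80 FPKM in wildtype samples and 15.67, 12.22 and 14.31 FPKM in *Pou4f3(Δ/+)*, and every wildtype sample was above every *Pou4f3(Δ/+)* sample. The log2 fold change was -0.60 (SE 0.16, unadjusted p = 0.00825), and it did not pass the adjustment over all transcripts (adjusted p = 0.999). The 5 classic transcripts with this exon held 13.6%, 13.2% and 15.5% of classic FPKM in wildtype samples and 13.7%, 10.2% and 11.1% in *Pou4f3(Δ/+)*, which overlapped. Their summed level had a mean of 52.6 ± 5.79 FPKM (SD, n = 3) in wildtype and 41.3 ± 6.29 FPKM in *Pou4f3(Δ/+)*. These sums did not overlap (exact two-sided permutation test, p = 0.1, not adjusted), although wildtype replicate 5 and *Pou4f3(Δ/+)* replicate 3 both rounded to 47.2 FPKM.

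Over the 8 genes, 26 of the 47 listed transcripts passed the filter on low counts and were tested. Mbp-215 was the only one with an unadjusted p under 0.05, where 4.14% of the 38347 transcripts tested reached it (2.19% in the lower direction), and 0 had an adjusted p under 0.05. The groups did not overlap for 3 of the 26, Mbp-215 lower and Mbp-205 and Cnp-202 higher in *Pou4f3(Δ/+)*, against 10.5% of all transcripts tested (5.15% lower and 5.39% higher).

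**Figure D2:**
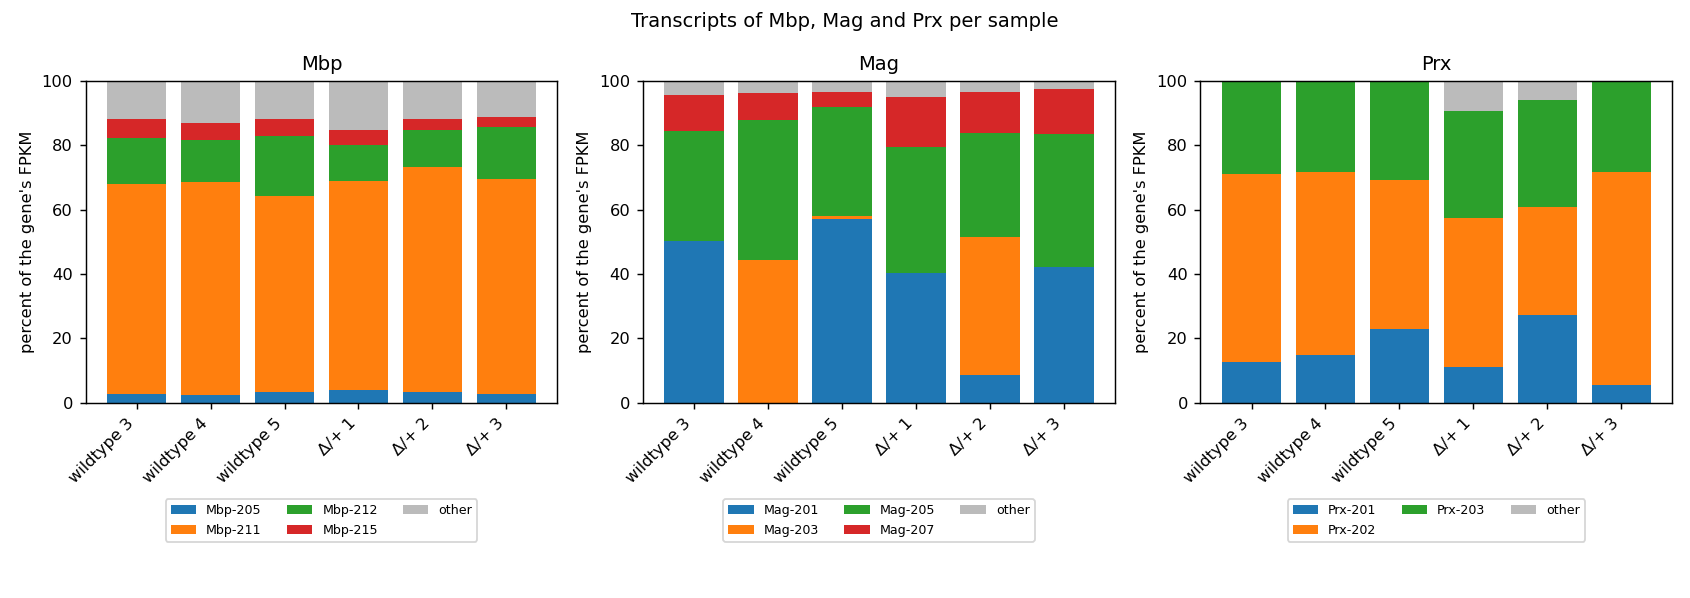
Stacked bars give the percent of the FPKM of *Mbp*, *Mag* and *Prx* (vertical axes) in each named transcript, for the 3 wildtype and 3 *Pou4f3(Δ/+)* samples. Mbp-211 is the largest part of *Mbp* in all 6 samples, the Mag-201 part moves to Mag-203 in wildtype replicate 4 and most of it in *Pou4f3(Δ/+)* replicate 2, and Prx-203 lies between 28.1% and 33.2%.

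*Cnp*, a phosphodiesterase that keeps cytoplasmic channels open in myelin of both nervous systems (chr11:100574904-100591729), was the only gene of the 8 with a higher estimate. Its level was 56.45, 62.98 and 62.79 FPKM in wildtype samples and 62.85, 65.48 and 72.02 FPKM in *Pou4f3(Δ/+)*. Wildtype replicate 4 was above *Pou4f3(Δ/+)* replicate 1, so the groups overlapped narrowly. Between genotypes the log2 fold change was 0.13 (SE 0.08, 95% interval -0.05 to 0.32, adjusted p = 0.696). The protein-coding transcript Cnp-201 held 61.3% of its FPKM, and Cnp-204, which is annotated without a coding sequence, held 36.0%.

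*Mog*, the oligodendrocyte glycoprotein on the outermost lamella of central myelin (chr17:37010743-37023398, reverse strand), was the lowest of the 8 genes. Its level was 2.99, 3.87 and 1.09 FPKM in wildtype samples and 1.39, 1.70 and 3.34 FPKM in *Pou4f3(Δ/+)*, from 32 to 94 counts per sample. The highest sample was 3.55 times the lowest, and both extremes were wildtype. This amounted to a log2 fold change of -0.33 (SE 0.46, 95% interval -1.38 to 0.72, adjusted p = 0.865), so folds from 0.38 to 1.65 were within the interval.

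Other genes of central myelin also varied widely. The 10 genes tested of 11 had 7 lower and 3 higher estimates with a median of -0.09, and 0 reached an unadjusted p of 0.05. That median was 0.12 without wildtype replicate 4, 0.06 without *Pou4f3(Δ/+)* replicate 2 and -0.28 without wildtype replicate 5. *Mobp*, an abundant structural protein of central myelin, was at 40.09, 46.16 and 20.10 FPKM in wildtype samples and 37.92, 45.80 and 48.59 FPKM in *Pou4f3(Δ/+)*, with a log2 fold change of 0.33 (SE 0.25, adjusted p = 0.751). Wildtype replicate 5 was the lowest sample for *Mobp*, for *Mog* and for *Mbp*, and its summed level of the central list was 35.5 FPKM against 56.3 to 71.8 FPKM in the other 5 samples. *Opalin*, another oligodendrocyte gene, was listed at 0 in all 6 samples.

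The proteins of peripheral myelin outside the 8 genes had 4 lower and 1 higher estimates of 5 tested, with a median of -0.10. *Cldn19*, the claudin of Schwann cell tight junctions, was at 9.39, 9.63 and 10.79 FPKM in wildtype samples and 8.32, 6.31 and 9.12 FPKM in *Pou4f3(Δ/+)*, for a log2 fold change of -0.29 (SE 0.12, unadjusted p = 0.0341, adjusted p = 0.643), and of -0.15 (SE 0.16) without *Pou4f3(Δ/+)* replicates 1 and 2. *Pmp2*, the fatty acid binding protein of peripheral myelin, had at most 7 counts and was not tested.

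**Figure D3:**
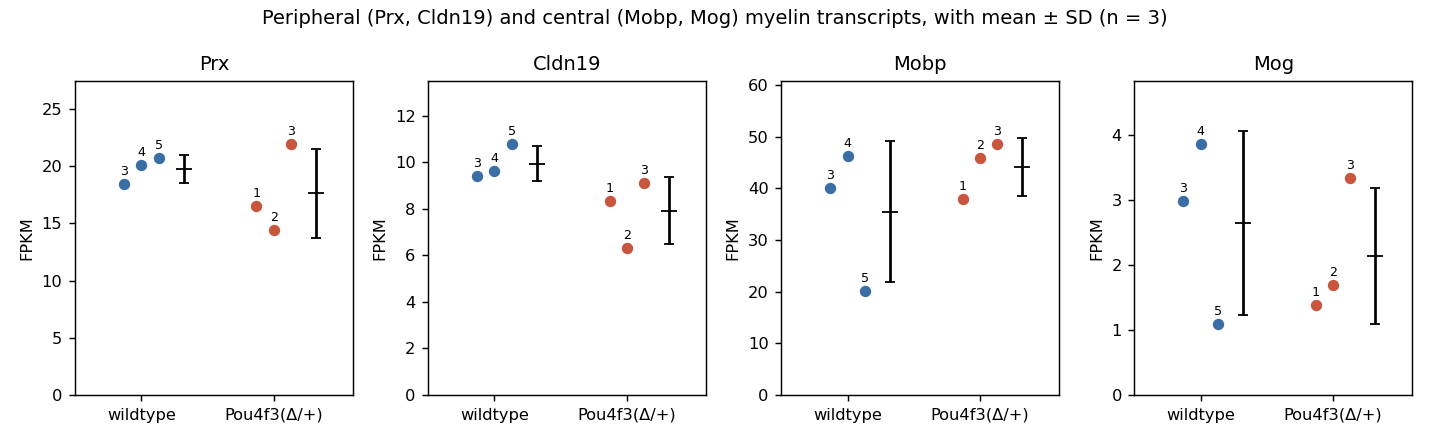
FPKM of 2 peripheral (*Prx*, *Cldn19*) and 2 central (*Mobp*, *Mog*) myelin genes (vertical axes from 0), for wildtype (blue) and *Pou4f3(Δ/+)* samples (red) with replicate numbers and mean ± SD (n = 3). *Prx* and *Cldn19* are lowest in *Pou4f3(Δ/+)* replicate 2, with 14.43 and 6.31 FPKM, and *Mobp* and *Mog* are lowest in wildtype replicate 5, with 20.10 and 1.09 FPKM.

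The other genes of the myelin pathway also had mostly lower estimates. In the 8 lists of Schwann cell and myelin genes beside the 8 themselves, 53 of the 69 genes tested (76.8%) were lower and 16 were higher, with a median log2 fold change of -0.13, where 50.6% of all genes tested were lower. Without *Pou4f3(Δ/+)* replicates 1 and 2 only 30 of the 69 (43.5%) were lower and the median was 0.04, and with single samples left out the lower count ran from 43 without *Pou4f3(Δ/+)* replicate 2 (median -0.04) to 56 without wildtype replicate 3 (median -0.16). In edgeR's test 0 had an adjusted p under 0.05. An unadjusted p under 0.05 was found for 4 genes, all lower, against 4.14% of all genes. The groups lay fully apart for 5 genes, all lower in *Pou4f3(Δ/+)*, against 6.03% of all genes. Genes of one cell type are not independent measurements.

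Signals between axon and Schwann cell had the lowest median of these lists, -0.17, and all 15 genes tested had lower estimates, from -0.47 to -0.02. *Itgb4*, the laminin-binding integrin of the mature Schwann cell surface, was at 3.31, 3.75 and 5.06 FPKM in wildtype samples and 2.63, 2.50 and 3.28 FPKM in *Pou4f3(Δ/+)*, and the groups did not overlap (log2 fold change -0.45, SE 0.18, unadjusted p = 0.0345, adjusted p = 0.643). It was -0.22 (SE 0.14) without wildtype replicate 5 and -0.27 (SE 0.26) without *Pou4f3(Δ/+)* replicates 1 and 2. The most abundant was *Dag1*, the dystroglycan to which periaxin links, with a mean of 24.0 ± 0.516 FPKM in wildtype samples and 21.4 ± 3.27 FPKM in *Pou4f3(Δ/+)*. *Nrg1*, the axonal signal that sets myelin thickness, had a log2 fold change of -0.17 (SE 0.10) and its receptor *Erbb3* had -0.15 (SE 0.13), and neither reached an unadjusted p of 0.05. Without *Pou4f3(Δ/+)* replicates 1 and 2 the median of this list was 0.04, without replicate 2 alone it was -0.07 and without replicate 3 alone it was -0.28.

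Genes of immature and injured Schwann cells, which rise when myelin is lost, had 6 lower and 4 higher estimates and a median of -0.09. *Gdnf*, a growth factor that Schwann cells make after nerve injury, was at 0.71, 0.70 and 0.83 FPKM in wildtype samples and 0.50, 0.39 and 0.56 FPKM in *Pou4f3(Δ/+)*, without overlap (log2 fold change -0.63, SE 0.27, unadjusted p = 0.0434, adjusted p = 0.643). *L1cam* and *Artn* also had groups that did not overlap, both lower in *Pou4f3(Δ/+)*, so 3 of the 10 genes did, against 6.03% of all genes lower in this way. In edgeR's test their unadjusted p was 0.198 for *L1cam* and 0.239 for *Artn*, and *Artn* rested on only 12 to 20 counts. *Gdnf* had -0.43 (SE 0.40) without *Pou4f3(Δ/+)* replicates 1 and 2. *Jun*, the main regulator of the repair state, had -0.03 (SE 0.14). *Id2*, an inhibitor of differentiation and the most abundant of these genes, was at 67.1 ± 2.55 FPKM in wildtype samples and 70.0 ± 5.85 FPKM in *Pou4f3(Δ/+)*.

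Myelin proteins of both nervous systems had 5 lower and 2 higher estimates with a median of -0.10. Myelin lipid synthesis had 7 lower and 2 higher estimates of 9 and a median of -0.05 (-0.21 without *Pou4f3(Δ/+)* replicate 3 and -0.01 without *Pou4f3(Δ/+)* replicate 2), and its most abundant gene *Scd2*, a fatty acid desaturase, was at 139 ± 10.4 and 135 ± 27.8 FPKM. The 5 markers of the Schwann lineage had a median of -0.05, which ran from -0.21 without *Pou4f3(Δ/+)* replicate 3 to 0.08 without *Pou4f3(Δ/+)* replicate 2 or wildtype replicate 4. Their most abundant gene *S100b*, a calcium-binding protein of glia that other cochlear cells also express, was at 740.75, 895.97 and 882.58 FPKM in wildtype samples and 524.29, 567.34 and 1062.44 FPKM in *Pou4f3(Δ/+)*, so that replicate 3 was the highest and replicates 1 and 2 the lowest of all 6 samples. Its log2 fold change was -0.23 (SE 0.24, adjusted p = 0.809), and without replicate 3 it was -0.61 (SE 0.11, adjusted p = 0.0465), in a fit that called 1.1% of all genes.

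**Figure D4:**
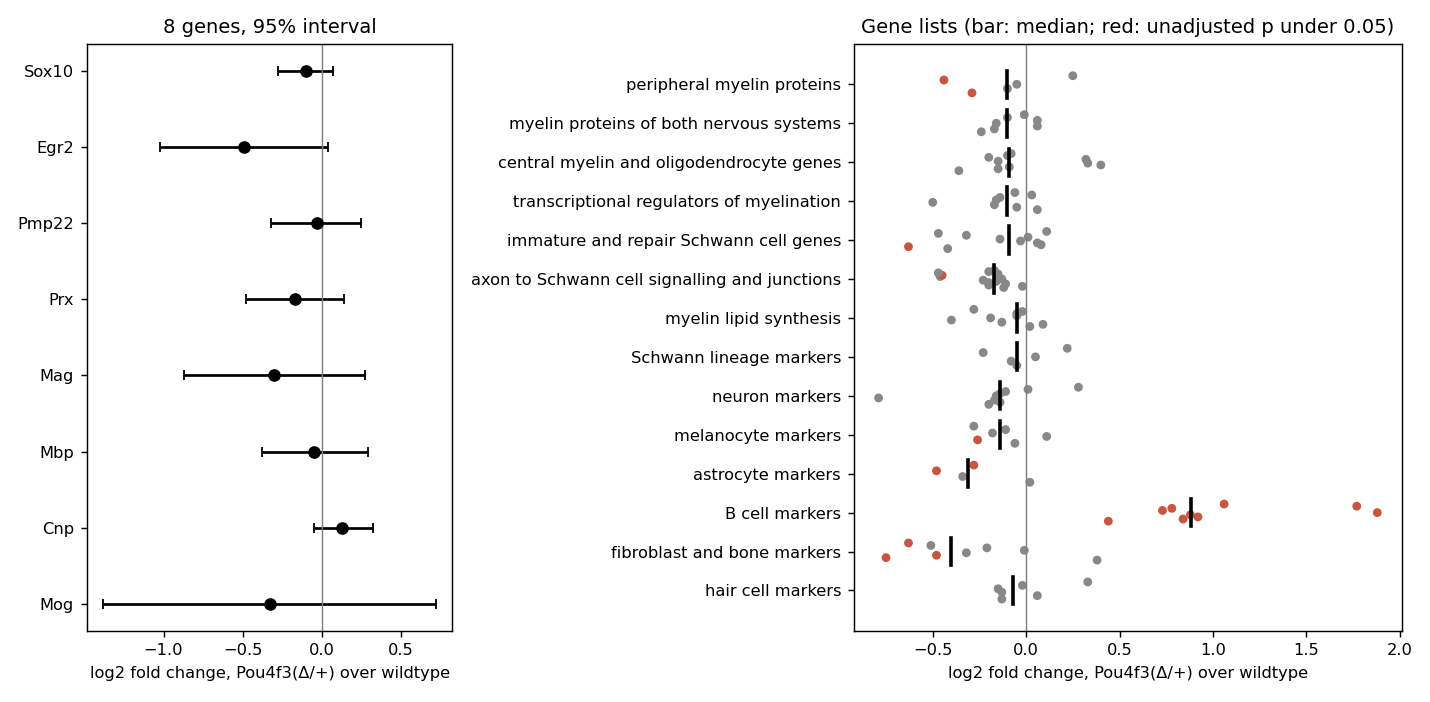
Left, log2 fold change of the 8 genes, *Pou4f3(Δ/+)* over wildtype, with its 95% interval, and right, the log2 fold change of each gene of the other lists (points) with the list's median (bar) and unadjusted p under 0.05 in red. All 8 intervals include 0, the 15 points of axon to Schwann cell signalling lie below 0, and the 9 B cell markers lie above it.

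Across samples the 8 genes did not form the 2 groups of the labels. After centring each gene on its mean over the 6 samples, the mean of the 8 genes in log2 CPM was 0.04, 0.27 and -0.06 for the wildtype samples, against -0.24, -0.25 and 0.24 for the *Pou4f3(Δ/+)* samples. *Pou4f3(Δ/+)* replicate 3 was thus on the level of wildtype replicate 4. Replicates 1 and 2 were each below all wildtype samples for 4 of the 8 genes, *Mag*, *Prx*, *Sox10* and *Egr2*, where 29.4% and 34.4% of all genes tested were. Replicate 3 was below all wildtype samples for 0 of the 8, where 22.2% of all genes were, and above them for *Pmp22*, *Cnp* and *Prx*, where 27.0% were. Replicate 2 was above them for *Cnp* (27.5% of all genes) and replicate 1 for 0 of the 8 (28.6%).

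Markers of other cell types also varied between the samples. Neuron markers had 7 lower and 2 higher estimates of 9 with a median of -0.14, which was -0.01 without *Pou4f3(Δ/+)* replicate 2 and -0.30 without *Pou4f3(Δ/+)* replicate 3, and their most abundant gene *Snap25*, a synaptic protein, was at 243.59, 272.81 and 261.48 FPKM in wildtype samples and 229.41, 208.54 and 269.69 FPKM in *Pou4f3(Δ/+)*. The fibroblast and bone markers had 7 lower estimates of 8 with a median of -0.40, and *Col1a1*, *Col1a2* and *Sp7* had an unadjusted p under 0.05. Astrocyte markers had 3 lower estimates of 4 with a median of -0.31, with *Slc1a2* and *Aqp4* past an unadjusted p of 0.05, against 4.14% of all genes lower at that level, and each of these 5 genes had an adjusted p of 0.643. B cell markers had 9 higher estimates of 9 with a median of 0.88. Hair cell markers had 4 lower and 2 higher estimates with a median of -0.07, and melanocyte markers, of which *Tyrp1* had too few counts to be tested, had a median of -0.14 (-0.02 without wildtype replicate 5 and -0.22 without wildtype replicate 4), with *Dct*, a melanin enzyme, as their most abundant gene. The most abundant of the astrocyte list was *Aqp4*, of the fibroblast and bone list *Ibsp*, of the B cell list *Cd79a* and of the hair cell list *Ocm*. The part of these cells in the values of the 8 genes was not tested. Without *Pou4f3(Δ/+)* replicates 1 and 2 the median of the 8 genes was 0.17, and that of the B cell markers was 0.21.

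**Figure D5:**
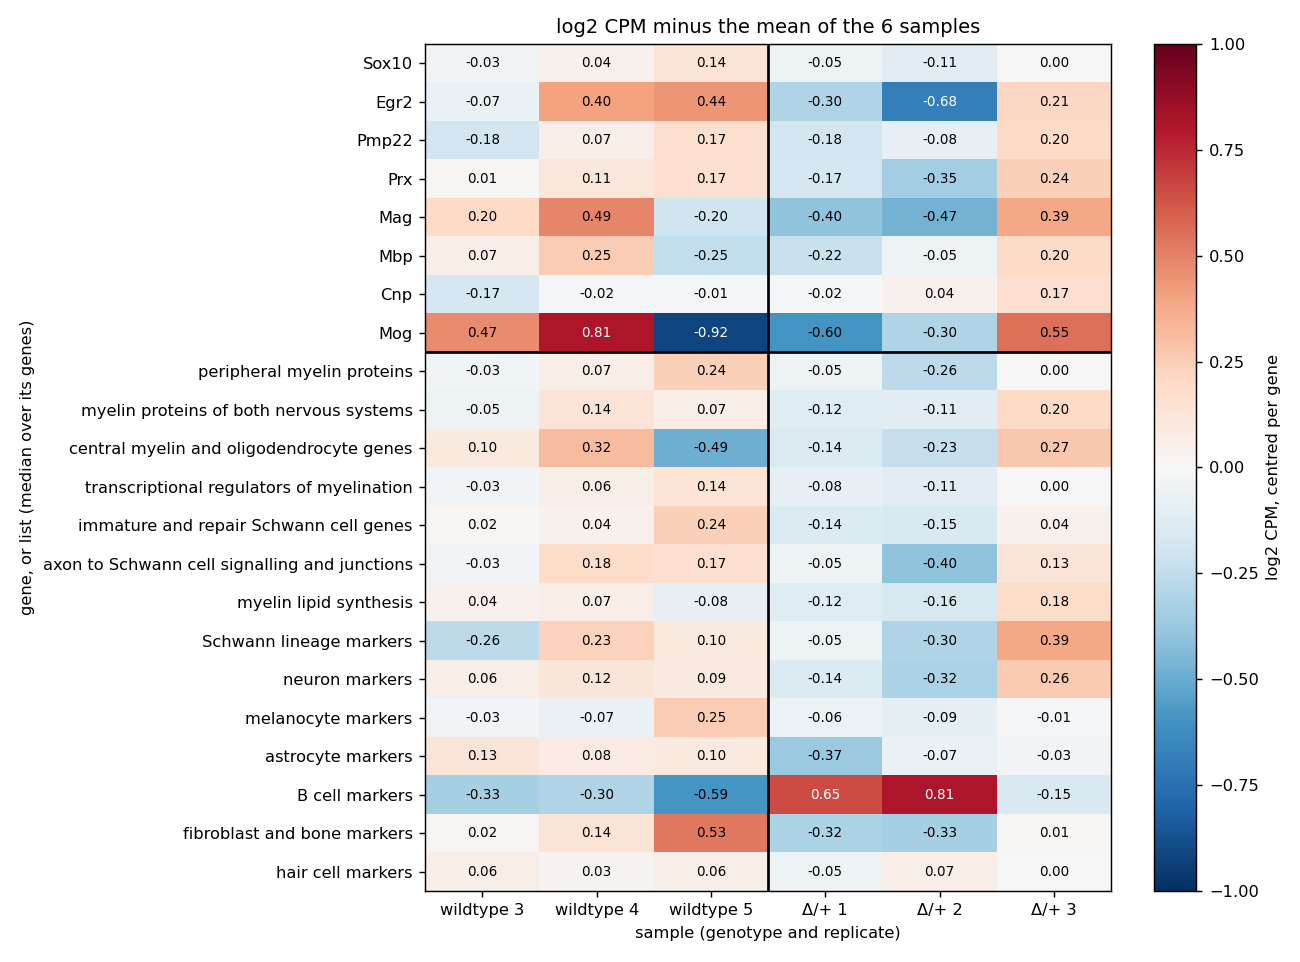
Heat map of log2 CPM minus the mean of the 6 samples, for each of the 8 genes (upper rows) and as the median over each other list (lower rows), in 3 wildtype and 3 *Pou4f3(Δ/+)* samples, with colours running from -1 to 1. Most of the 8 genes are blue in *Pou4f3(Δ/+)* replicates 1 and 2 and red in replicate 3, and the B cell row has values of 0.65 and 0.81 in replicates 1 and 2.

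Of the other 17128 genes, *Usp11*, *Gnl3l*, *Cox4i2* and *Lss* were among those whose pattern was most like the mean of the 8 genes, with Pearson's r from 0.991 to 0.995 and Spearman's rho from 0.94 to 1.0 over the 6 samples. They were picked as the highest of all genes, so these values are a description. The 99th percentile of r over these genes was 0.92, with only 6 samples behind each value. Of 111 genes in all the lists, those of neurons and other cell types included, 33 were among the 10% most alike. Among the 50 most alike there were 0 of the 111, where few would be expected, since the lists hold only a small part of the 17128 genes.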

How the data were processed

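Bulk RNA-seq libraries were made from poly(A)-selected or rRNA-depleted total RNA of cochleae and sequenced on an Illumina HiSeq. For each of 6 samples the authors deposited an expected count per transcript, an estimate that can hold fractions and was not normalized. The authors' deposited files also hold FPKM per transcript, which are scaled to transcript length and library. The submitters' processing notes name the build mm8 and DESeq2, and the aligner is not given in the sources used here. Of 128603 transcripts, 99.5% were found by identifier in GENCODE M21 (GRCm38), from which names, coordinates and sequences were taken. A date stands in place of 24 symbols, which were kept in that form.

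Counts were summed per symbol, rounded and tested with edgeR 4.0.16 (R 4.3.3) by the quasi-likelihood test over all 6 samples without covariates, after filterByExpr (minimum count 10, minimum total 15) and TMM normalization, with Benjamini-Hochberg adjustment over all genes, and likewise per transcript. Standard errors and 95% intervals come from this fit. Shares were compared by a two-sided exact permutation test over samples (SciPy 1.17.1, NumPy 2.4.6, pandas 2.3.3, Python 3.11.15). The gene-level edgeR test was also checked on simulated counts. Precision is limited by 14295069 to 17696784 counts per sample, and the intervals also hold the spread between samples. Groups follow the genotype in the labels. Named were the 8 genes, from each list the most abundant gene and those with an unadjusted p under 0.05, transcripts with at least 10% of their gene's FPKM, and the 5 genes most alike. Others are marked or were named beside these (*Nrg1*, *Erbb3*, *Jun*, *L1cam*, *Artn* and the transcripts Mbp-205, Mbp-215 and Cnp-202, and that of *Pmp22* with the most upstream start) after their values were seen. Some items that this rule would name are not reported here. The members and lists were chosen with earlier results of these data known. Alternatives were DESeq2 1.42.0, its size factors in edgeR, limma-trend 3.58.1 on log2(FPKM + 0.5, 0.1 or 1), other filters, protein-coding transcripts alone, and samples left out.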

Additional observations from a re-analysis of the deposited data

How the results depend on the processing

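None of the 8 genes had an adjusted p under 0.05 under any of the 15 gene-level alternatives. Leaving out *Pou4f3(Δ/+)* replicates 1 and 2 together, where the lone sample left is assumed to vary like the wildtype samples, turned the log2 fold change of 5 genes, to 0.16 for *Mbp*, 0.18 for *Pmp22*, 0.20 for *Mag*, 0.14 for *Prx* and 0.28 for *Mog*. It moved the medians to 0.17 for the 8 genes, 0.12 for myelin proteins of both nervous systems, 0.22 for central myelin, 0.05 for lipid synthesis, 0.01 for hair cell markers, -0.03 for regulators, 0.04 for axon to Schwann cell signalling, 0.32 for Schwann lineage, 0.18 for neuron, -0.09 for astrocyte, 0.21 for B cell and -0.15 for fibroblast and bone markers. With each replicate left out in turn, the log2 fold change ran from -0.17 to 0.08 for *Mbp*, -0.15 to 0.05 for *Pmp22*, -0.75 to 0.03 for *Mog*, -0.62 (without *Pou4f3(Δ/+)* replicate 3) to -0.12 (without wildtype replicate 4) for *Mag*, and -0.35 to -0.05 (without *Pou4f3(Δ/+)* replicates 3 and 2 in turn) for *Prx*, and likewise -0.75 to -0.30 for *Egr2*. For *Cnp* the log2 fold change ran from 0.08 to 0.17 and for *Sox10* from -0.14 to -0.06. The median of the 8 genes ran from -0.25 without *Pou4f3(Δ/+)* replicate 3 to -0.06 without *Pou4f3(Δ/+)* replicate 2 or wildtype replicate 4. For transcripts it ran from -0.15 to 0.14 for Mbp-211, -0.19 to 0.07 for the main *Pmp22* transcript, -0.87 to 0.41 for Mag-201, -0.71 to 0.16 for Mag-205, -0.76 to 0.04 for Prx-202, -0.18 to 0.01 for Prx-203 and -0.76 to 0.03 for Mog-201. Medians ran from -0.16 to 0.00 for myelin proteins of both nervous systems, -0.18 (without wildtype replicate 3) to -0.09 for peripheral myelin proteins, -0.14 to -0.04 (without wildtype replicate 5) for immature and repair genes, -0.11 (without wildtype replicate 5) to 0.02 (without wildtype replicate 4) for hair cell markers, -0.37 to -0.13 for astrocyte and -0.54 to -0.23 for fibroblast and bone markers. The genes of the 8 lists with an adjusted p under 0.05 numbered 0 to 2, the highest without *Pou4f3(Δ/+)* replicate 3. The cause was not tested. Over all genes, 0 passed in the main test and 193 without *Pou4f3(Δ/+)* replicate 3, 64 by DESeq2, 9 without a filter, 6 without *Pou4f3(Δ/+)* replicates 1 and 2, 3 without wildtype replicate 4 and 1 by limma-trend with a pseudocount of 0.1. Of 534 values recomputed, 489 kept their direction and their side of the threshold or stayed within the spread. The exon shares of *Mbp*, *Mag* and *Prx*, and the lower counts of the 8 lists were added after seeing the data. No paired analysis was possible because the groups share only replicate number 3. Mag-207, *Gdnf* and *Artn* rest on low counts.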
